A study of Homo sapiens with 8 samples.

Results

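The genes described here make, break down and sense prostaglandins. They are the phospholipase PLA2G4A, the cyclooxygenases PTGS1 and PTGS2, the terminal synthases PTGES, HPGDS and PTGIS, the dehydrogenase HPGD, and the receptors PTGER2 and PTGER4. The list was made with earlier results of these data known. Probe sets were chosen by symbol: a probe set counted for a gene if the platform annotation gave it that gene alone. Each of the 9 genes had exactly 1 such probe set, out of 22395 genes named in this way. All 9 passed the filter on low values, a signal over 2.57 on 1 or more arrays, as did 16986 genes in all. That floor is the median of the deposited values. RNA was measured on 8 whole-transcript arrays of MUG-Chor1 and U-CH1, established cell lines from chordomas, bone tumours of the spine and skull base that carry notochord features. Both lines grew as monolayers on gelatin-coated plastic in a serum-containing mix of IMDM and RPMI. The MUG-Chor1 TNF and U-CH1 TNF groups hold 1 array each, from cells kept for 1 week with human recombinant TNF-α at 10 ng/mL, given 3 times a week. The MUG-Chor1 control and U-CH1 control groups hold 3 arrays each, from cells of the same line grown without it. The labels do not say whether the 3 controls of a line were grown as separate cultures, so the tests measure the spread between these arrays, which may be technical, and each TNF array was assumed to vary as the controls did.

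Prostaglandin synthesis begins when phospholipase A2 frees arachidonic acid from membrane lipids. A cyclooxygenase turns the acid into prostaglandin H2, and the terminal synthase a cell holds then decides which prostaglandin is made. PTGES makes PGE2, HPGDS makes PGD2 and PTGIS makes prostacyclin. HPGD oxidises PGE2 and related prostaglandins to forms that bind their receptors poorly. PTGER2 and PTGER4 encode EP2 and EP4, PGE2 receptors that raise cAMP. PTGS2 and PTGES are known in many cell types as genes switched on together by inflammatory cytokines, TNF among them, whereas PTGS1 is usually made at a steady level.

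The arrays were alike in overall brightness, with medians of 2.52 to 2.63 on the deposited log2 scale. Mean correlations with the controls of the same line, over the tested genes, were 0.932 for the MUG-Chor1 TNF array, 0.943 for the U-CH1 TNF array and 0.960 to 0.970 for the controls themselves. MUG-Chor1 control 3 read higher than controls 1 and 2 in 4 TNF-responsive genes. These were ICAM1 (6.75 against 4.55 and 4.24), CCL2 (3.11 against 1.21 and 0.99), IL6 (3.95 against 2.96 and 2.38) and TNFAIP3 (5.58 against 4.65 and 5.36). TNFAIP3 stood closer to control 2 than the others did. In NFKBIA control 3 lay between the other controls (7.83 against 7.28 and 7.86). The 5 TNF-responsive genes used as a check, TNFAIP3, NFKBIA, ICAM1, CCL2 and IL6, were set against the labels: 4 were higher with TNF across both lines (limma, adjusted p = 0.000487 to 0.0115) and NFKBIA was not past the threshold (0.294). All 8 chordoma and notochord markers examined, TBXT among them, were above 2.57 in every group. Their summed log2 signal was 43.0 on the MUG-Chor1 TNF array against 61.0 to 63.8 on the MUG-Chor1 controls, and 59.5 on the U-CH1 TNF array against 62.2 to 66.2 on the U-CH1 controls. Of these 8 markers, 6 were lower with TNF in MUG-Chor1 and 0 in U-CH1 (limma; 7 and 3 were lower at an unadjusted p under 0.05). Of all genes, 1.41% were called lower in MUG-Chor1 and 0.359% in U-CH1. Markers of other cell types also moved. The summed signal of the 5 leukocyte markers on the array was 17.3 on the MUG-Chor1 TNF array against 15.5 to 15.9 on its controls, and 18.2 on the U-CH1 TNF array against 15.5 to 16.0 on its controls. CD68 and ITGAM were called higher across both lines (limma adjusted p = 0.0485 and 0.0448), as were 1.55% of all genes. Neither passed the test in either line alone. CD14 did not pass across both lines (0.36, limma adjusted p = 0.515), and PTPRC and CD3E lay below 2.57 on every array. The summed signal of the 5 fibroblast markers was 24.9 on the MUG-Chor1 TNF array against 19.0 to 23.2 on its controls, and 24.8 on the U-CH1 TNF array against 22.9 to 24.9 on its controls. With TNF in MUG-Chor1 LUM (3.65) and DCN (1.60) were called higher, as were 1.47% of all genes. PDGFRB (-0.56), COL1A1 (-0.57) and THY1 (-0.81) did not pass the test, and the median of the 5 was -0.56. Of the 4 endothelial markers, KDR was called lower with TNF in MUG-Chor1 (log2 difference -2.37), as were 1.41% of all genes. TEK (-0.83), CDH5 (-0.37) and VWF (0.43) did not pass the test there. The part of these changes in the results on prostaglandin genes was not tested, and in a culture fewer cells of a type and less RNA per cell cannot be told apart.

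With TNF the 9 genes split. In MUG-Chor1 the PGE2 synthase gene PTGES rose 9.25-fold, while the cyclooxygenase gene PTGS2 fell 4.35-fold and the PGE2-degrading gene HPGD fell 3.56-fold. In U-CH1 the EP4 receptor gene PTGER4 was the 1 gene that passed the test, 2.83-fold higher. Across both lines PTGES and PTGER4 rose. The HPGD fall missed the threshold under 8 of 14 alternatives and the PTGER4 rise in U-CH1 under 4 of 14. Both calls across the lines were lost when certain single arrays were left out. Between the untreated lines, the PGD2 synthase gene HPGDS read 49.3-fold lower in MUG-Chor1, where its signal was under 2.57 on every array and was not shown to be above background. PLA2G4A was 2.62-fold lower in MUG-Chor1 and PTGS2 was 2.10-fold higher. A gene was called with limma at an adjusted p under 0.05, with Benjamini-Hochberg adjustment over all 16986 genes.

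**Figure D1:**
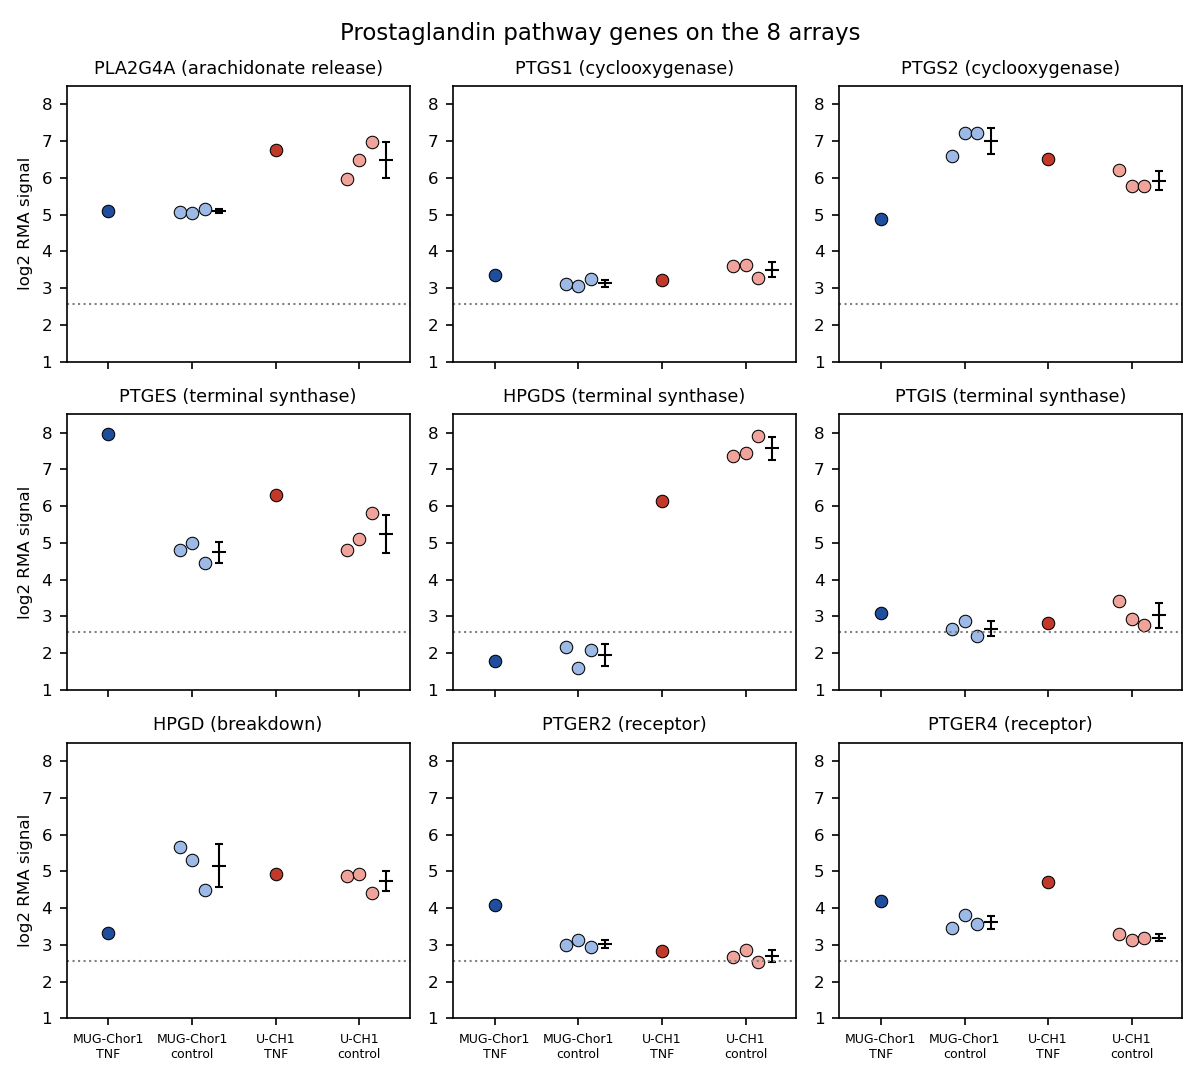
Log2 RMA signal (y axis) of each gene on every array (points), by group (x axis), with the mean and SD of the 3 controls as a cross bar and whisker beside the points. The dotted line marks 2.57, the median of all deposited values. PTGES stands highest on the MUG-Chor1 TNF array at 7.96, PTGS2 stands lowest there at 4.88, and HPGDS lies between 1.60 and 2.16 on all MUG-Chor1 arrays against 6.13 to 7.92 on the U-CH1 arrays.

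Counted over the 9 genes, PTGES and PTGER4 were higher with TNF across both lines and 0 were lower (limma; 3 higher and 1 lower at an unadjusted p under 0.05), where 1.55% of all genes were called higher and 0.93% lower. In MUG-Chor1 the count was 1 higher and 2 lower, against 1.47% and 1.41% of all genes. In U-CH1 it was 1 higher and 0 lower (2 and 1 unadjusted), against 0.913% and 0.359% of all genes. The difference of the TNF effects was called lower in MUG-Chor1 for 1 gene and higher for 0 (3 and 3 unadjusted), against 0.33% and 0.2% of all genes. Between the untreated lines 1 was higher and 2 were lower in MUG-Chor1, against 10.3% and 8.57% of all genes. The TNF array lay outside its 3 controls for 7 of the 9 genes in MUG-Chor1 and for 5 in U-CH1, which is not far from the 59.2% and 54.3% of all genes that did so. The controls of the lines did not overlap for 6 of the 9, against 36.3% of all genes. The median TNF difference of the 9 was 0.11 across both lines, 0.23 in MUG-Chor1 and 0.18 in U-CH1, against 0.05, 0.06 and 0.04 over all genes tested. Between the untreated lines it was -0.37, against -0.04 over all genes. These comparisons share arrays, so the counts are not independent of each other. The 9 genes were chosen with earlier results of these data known, so a count above the share of all genes is not a test of the set.

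**Figure D2:**
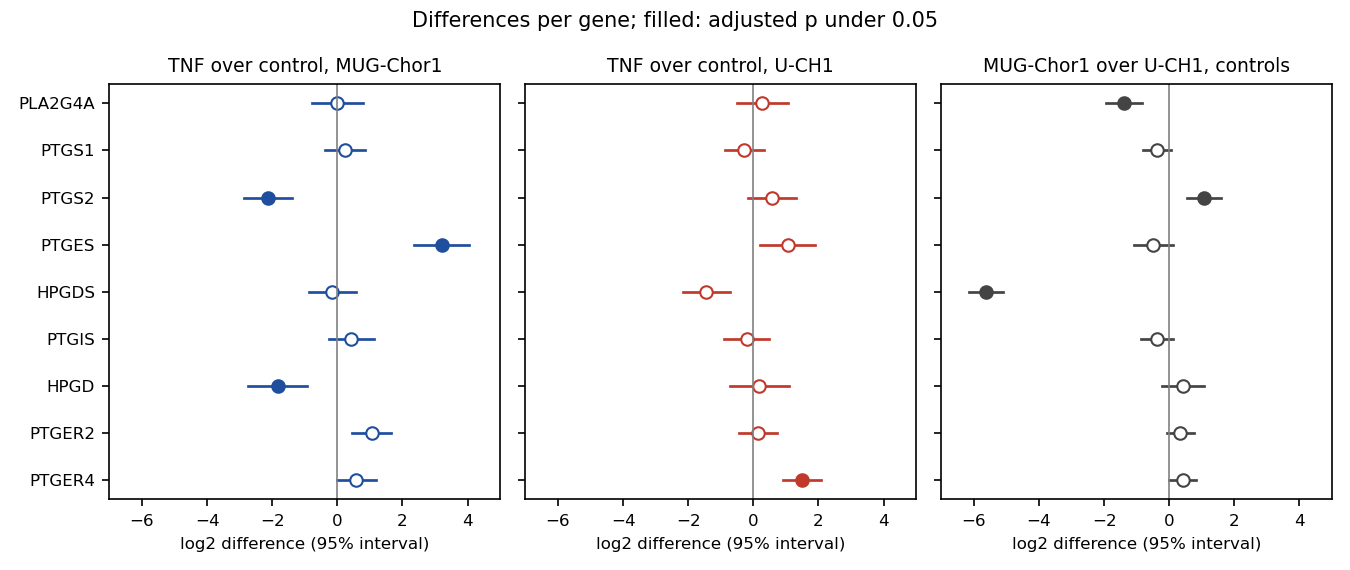
Log2 difference of each gene (x axis, points with 95% intervals from limma) for TNF over control in MUG-Chor1, for TNF over control in U-CH1, and for MUG-Chor1 over U-CH1 controls. Filled points have an adjusted p under 0.05: PTGES, PTGS2 and HPGD in MUG-Chor1, PTGER4 in U-CH1, and PLA2G4A, PTGS2 and HPGDS between the untreated lines.

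The promoters of 3 genes are printed: PTGES and PTGER4, called higher with TNF across both lines, and PTGS2, called lower in MUG-Chor1. Within single lines PTGES passed the test only in MUG-Chor1 and PTGER4 only in U-CH1. The sequences are from RefSeq (GRCh38.p14), which gave a promoter for 8 of the 9 genes, and each runs from 250 bases before to 50 bases after a start site, 5′ to 3′ along the gene. PTGES lies at chr9:129752993-129753292 on the minus strand, PTGER4 at chr5:40679665-40679964 on the plus strand and PTGS2 at chr1:186680374-186680673 on the minus strand. Capitals mark matches to the motifs named after the sequences.
PTGES: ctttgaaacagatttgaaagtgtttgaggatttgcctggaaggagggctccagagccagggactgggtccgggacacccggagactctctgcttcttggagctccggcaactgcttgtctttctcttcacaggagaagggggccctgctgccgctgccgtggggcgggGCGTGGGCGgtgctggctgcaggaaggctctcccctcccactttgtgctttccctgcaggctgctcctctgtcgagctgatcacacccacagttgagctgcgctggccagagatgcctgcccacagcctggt
PTGER4: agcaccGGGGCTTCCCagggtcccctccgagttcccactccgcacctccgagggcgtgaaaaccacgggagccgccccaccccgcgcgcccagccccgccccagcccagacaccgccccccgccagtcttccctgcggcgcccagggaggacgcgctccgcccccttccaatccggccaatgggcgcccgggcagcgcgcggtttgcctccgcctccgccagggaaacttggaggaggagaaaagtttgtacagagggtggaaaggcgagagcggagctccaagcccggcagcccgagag
PTGS2: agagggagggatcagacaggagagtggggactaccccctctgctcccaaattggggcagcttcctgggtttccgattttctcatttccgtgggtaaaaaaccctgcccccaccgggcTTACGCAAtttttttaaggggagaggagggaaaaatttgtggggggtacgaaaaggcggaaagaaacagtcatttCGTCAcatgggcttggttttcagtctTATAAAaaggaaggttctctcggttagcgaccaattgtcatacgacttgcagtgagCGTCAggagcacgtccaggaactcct

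Motifs were searched on both strands of each window, with N for any base. The searches were for the kappaB consensus bound by NF-kB (present in 5.91% of the 35116 promoters in the table), the EGR motif GCGNGGGCG (9.43%), the C/EBP motif TTNNGCAA (10.5%), the cAMP response half-site TGACG (24.6%), the TATA motif TATAAA (11.5%) and the GATA motif TGATAA (7.53%). In PTGES the capitals are an EGR match, GCGTGGGCG, at -82 to -74 from the start site. In PTGER4 they are a kappaB match, GGGGCTTCCC, at -244 to -235. In PTGS2 they are, in order, a C/EBP match, TTACGCAA, at -133 to -126, a half-site on the minus strand at -58 to -54, a TATA match at -32 to -27 and a further half-site on the minus strand at 25 to 29. Only exact matches to a motif were counted. In the PTGS2 window the letters gggactaccc differ from the kappaB consensus at 1 base, so they are not in capitals. A promoter without a match is thus not shown to lack a site. A match is a description of the letters and was not set against any measure of binding. Of the genes whose promoters are not printed, PTGER2 held 2 EGR matches and 1 half-site. HPGDS held 2 TATA matches, 1 GATA match and 1 half-site, the half-site directly followed by the nearer TATA match. PTGS1 held 1 TATA match and HPGD 1 half-site, each in 1 of their 2 promoters, and PLA2G4A held 0 matches.

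Arachidonate release is represented by PLA2G4A, the calcium-dependent cytosolic phospholipase A2. It read 5.09 on the MUG-Chor1 TNF array, against 5.08, 5.04 and 5.15 on the MUG-Chor1 controls. It read 6.76 on the U-CH1 TNF array, against 5.98, 6.5 and 6.97 on the U-CH1 controls. Both TNF arrays lay inside the range of their own controls. The TNF difference was -0.00205 on the log2 scale in MUG-Chor1 (95% interval -0.78 to 0.78, adjusted p = 0.999) and 0.28 in U-CH1 (-0.50 to 1.06, adjusted p = 0.879). The lines themselves did not overlap: PLA2G4A averaged 5.09 ± 0.05 in MUG-Chor1 controls and 6.48 ± 0.50 in U-CH1 controls (SD, n = 3 each), a difference of -1.39 ± 0.25 (SE, limma adjusted p = 0.00326).

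Among the other genes of arachidonate release and reacylation, 14 of 18 listed could be tested, and 1 rose with TNF in each line, PLA2G4C, a calcium-independent relative of PLA2G4A. Of all genes, 1.47% were called higher in MUG-Chor1 and 0.913% in U-CH1. PLA2G4C read 4.46 on the MUG-Chor1 TNF array, against 2.48, 2.12 and 2.83 on the MUG-Chor1 controls. It read 4.63 on the U-CH1 TNF array, against 2.37, 2.15 and 2.42 on the U-CH1 controls. The TNF array stood 1.63 above the highest control in MUG-Chor1 and 2.21 above it in U-CH1. The difference was 1.98 ± 0.31 in MUG-Chor1 (SE, limma adjusted p = 0.00652), 2.32 ± 0.31 in U-CH1 (adjusted p = 0.00698) and 2.15 ± 0.22 across both lines (adjusted p = 0.000886). The test of the difference between the lines did not pass (-0.34, 95% interval -1.31 to 0.64, adjusted p near 1). The median TNF difference of the 14 genes across both lines was -0.06, against 0.05 over all genes tested. Between the untreated lines 3 of the 14 were higher in MUG-Chor1 and 1 was lower, against 10.3% and 8.57% of all genes. The secreted phospholipase gene PLA2G5 was higher by 1.18 (adjusted p = 0.00882), the diacylglycerol lipase gene DAGLA by 1.38 (adjusted p = 0.00584) and the lysophosphatidylinositol acyltransferase gene MBOAT7 by 0.88 (adjusted p = 0.0417). LPCAT3, which puts arachidonate back into lysophospholipids, had a log2 difference of -1.0 (adjusted p = 0.0344). The MBOAT7 call was lost without any 1 U-CH1 control, MUG-Chor1 control 2 or MUG-Chor1 control 3 (adjusted p = 0.0628 to 0.113) and without the filter (0.0527). The LPCAT3 call was lost without U-CH1 control 2 or 3 or MUG-Chor1 control 1 or 2 (0.102 to 0.119).

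Of the cyclooxygenases, PTGS1 varied by 0.59 over the 8 arrays. It read 3.36 on the MUG-Chor1 TNF array, against 3.11, 3.05 and 3.23 on the MUG-Chor1 controls. It read 3.23 on the U-CH1 TNF array, against 3.61, 3.64 and 3.26 on the U-CH1 controls. The MUG-Chor1 TNF array lay above its controls and the U-CH1 TNF array below its own, in each case by little: the TNF difference was 0.23 in MUG-Chor1 (95% interval -0.37 to 0.84, adjusted p = 0.852) and -0.27 in U-CH1 (-0.88 to 0.33, adjusted p = 0.830). Controls of the lines did not overlap, at 3.13 ± 0.09 in MUG-Chor1 and 3.5 ± 0.21 in U-CH1 (SD, n = 3 each), but that difference did not pass the test (-0.37, adjusted p = 0.216).

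PTGS2, the cyclooxygenase that inflammatory signals induce in many cells, read 4.88 on the MUG-Chor1 TNF array, against 6.58, 7.21 and 7.21 on the MUG-Chor1 controls. It read 6.51 on the U-CH1 TNF array, against 6.22, 5.78 and 5.78 on the U-CH1 controls. The MUG-Chor1 TNF array was thus the lowest of the 8 and the U-CH1 TNF array lay above all controls of its line. PTGS2 fell by 2.12 ± 0.33 on the log2 scale with TNF in MUG-Chor1 (SE, 95% interval -2.85 to -1.38, limma adjusted p = 0.00629). In U-CH1 the difference of 0.58 ± 0.33 did not pass the test (adjusted p = 0.608). The TNF effects differed between the lines by -2.70 ± 0.47 (MUG-Chor1 minus U-CH1, adjusted p = 0.0384), and PTGS2 was the 1 gene of the 9 for which the test of that difference passed. That call is close to the threshold: its adjusted p was 0.0507 without the filter on low values, 0.0644, 0.102 and 0.0863 without U-CH1 control 1, 2 or 3, and 0.0674 without MUG-Chor1 control 2. Across both lines the opposite values averaged to -0.77 (adjusted p = 0.478). Without the MUG-Chor1 TNF array that fit only repeats the U-CH1 difference of 0.58. In the untreated cells PTGS2 averaged 7.0 ± 0.36 in MUG-Chor1 and 5.93 ± 0.25 in U-CH1 (SD, n = 3 each), with no overlap, a difference of 1.07 ± 0.23 (adjusted p = 0.0097).

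Among the 9 genes, the largest differences were those of 2 terminal synthases, PTGES with TNF and HPGDS between the lines. PTGES, the inducible PGE2 synthase of the microsomal membrane, read 7.96 on the MUG-Chor1 TNF array, against 4.80, 5.0 and 4.44 on the MUG-Chor1 controls. It read 6.31 on the U-CH1 TNF array, against 4.82, 5.11 and 5.81 on the U-CH1 controls. Both TNF arrays lay above all controls of their line, by 2.96 in MUG-Chor1 and by 0.50 in U-CH1. PTGES rose by 3.21 ± 0.38 in MUG-Chor1 (SE, 95% interval 2.36 to 4.06, limma adjusted p = 0.00141). In U-CH1 the difference was 1.06 ± 0.38 (0.22 to 1.91), which did not pass the test (adjusted p = 0.305). The difference between the lines, 2.14 ± 0.54, did not pass either (adjusted p = 0.172). Across both lines PTGES rose by 2.14 ± 0.42 (adjusted p = 0.0258). That call rests on single arrays: its adjusted p was 0.0633 and 0.0546 without U-CH1 control 1 or 2, and 0.0654 without MUG-Chor1 control 1. It was also lost without the MUG-Chor1 TNF array, but that fit only repeats the U-CH1 difference of 1.06. The untreated lines overlapped, at 4.75 ± 0.28 in MUG-Chor1 and 5.24 ± 0.51 in U-CH1 (SD, n = 3 each; adjusted p = 0.244).

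HPGDS, the glutathione-dependent PGD2 synthase known mostly from mast cells and other blood cells, separated the lines. It read 1.79 on the MUG-Chor1 TNF array, against 2.16, 1.60 and 2.09 on the MUG-Chor1 controls. It read 6.13 on the U-CH1 TNF array, against 7.35, 7.45 and 7.92 on the U-CH1 controls. All 4 MUG-Chor1 arrays lay below 2.57 and all 4 U-CH1 arrays far above it. The untreated lines averaged 1.95 ± 0.31 in MUG-Chor1 and 7.57 ± 0.30 in U-CH1 (SD, n = 3 each), a difference of -5.62 ± 0.23 (SE, 95% interval -6.14 to -5.11, adjusted p = 2.98e-07). HPGDS passed the filter through the U-CH1 arrays alone. In the fit of all genes without a filter its adjusted p was 1.48e-06. No detection call was used here, so the MUG-Chor1 signal is not shown to be above background and the exact size of the difference is uncertain. With TNF the U-CH1 array lay 1.22 below the lowest U-CH1 control, but the difference of -1.44 ± 0.33 missed the threshold (adjusted p = 0.0694). In MUG-Chor1 the TNF array lay among its controls (-0.15, adjusted p = 0.935). Of the mast cell markers, 3 of 5 listed were on the array: CPA3 and HDC lay below 2.57 on every array, and KIT differed between the untreated lines by -0.75 (adjusted p = 0.292).

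PTGIS, the prostacyclin synthase, varied by 0.94 over the 8 arrays. It read 3.10 on the MUG-Chor1 TNF array, against 2.66, 2.88 and 2.48 on the MUG-Chor1 controls. It read 2.83 on the U-CH1 TNF array, against 3.42, 2.92 and 2.77 on the U-CH1 controls. The TNF array lay above its controls in MUG-Chor1 and inside their range in U-CH1, and no comparison passed the test (TNF difference 0.43 with adjusted p = 0.685 in MUG-Chor1, and -0.21 with adjusted p = 0.910 in U-CH1). The untreated lines overlapped (-0.37, adjusted p = 0.302).

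Of the other prostanoid synthases, 6 of 7 listed could be tested and 0 passed the test with TNF in any comparison (limma; across both lines 2 were higher and 0 lower at an unadjusted p under 0.05). Their median TNF difference across both lines was 0.36, against 0.05 over all genes tested. Between the untreated lines 1 was higher in MUG-Chor1 and 1 was lower, against 10.3% and 8.57% of all genes. PRXL2B, a prostamide and prostaglandin F synthase, was higher by 1.3 (limma adjusted p = 0.00747). CBR1, a carbonyl reductase that acts on PGE2, had a log2 difference of -0.83 (limma adjusted p = 0.0141).

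HPGD, the dehydrogenase that begins PGE2 breakdown, read 3.32 on the MUG-Chor1 TNF array, against 5.65, 5.31 and 4.5 on the MUG-Chor1 controls. It read 4.91 on the U-CH1 TNF array, against 4.86, 4.92 and 4.42 on the U-CH1 controls. The MUG-Chor1 TNF array was the lowest of the 8, and the U-CH1 TNF array lay inside its controls. HPGD fell by 1.83 ± 0.41 with TNF in MUG-Chor1 (SE, 95% interval -2.74 to -0.92, limma adjusted p = 0.0416). In U-CH1 the difference was 0.18 ± 0.41 (adjusted p = 0.950), and the difference between the lines, -2.02 ± 0.58, did not pass the test (adjusted p = 0.260). MUG-Chor1 control 3 was the lowest control. Without that array HPGD fell by 2.16 (adjusted p = 0.00372) and the difference between the lines passed at -2.34 (adjusted p = 0.0391). The fall itself is fragile, since it missed the threshold under 8 of 14 alternatives. Without MUG-Chor1 control 1 or 2 its adjusted p was 0.105 and 0.0903, without U-CH1 control 1, 2 or 3 it was 0.0811, 0.0681 and 0.0535, and with the MUG-Chor1 arrays alone it was 0.121. Without the filter it was 0.0597 and after a further quantile normalization 0.0539. The untreated lines overlapped, at 5.15 ± 0.59 in MUG-Chor1 and 4.73 ± 0.27 in U-CH1 (SD, n = 3 each; adjusted p = 0.366).

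All 5 other genes of prostaglandin transport and breakdown could be tested, and 0 passed with TNF in any comparison (limma; across both lines 2 were higher at an unadjusted p under 0.05). Between the untreated lines 1 of them was higher in MUG-Chor1 and 1 was lower, against 10.3% and 8.57% of all genes. PTGR1, which reduces the 15-keto product of HPGD, read 5.59, 5.15 and 6.49 in MUG-Chor1 controls, against 2.75, 3.5 and 3.92 in U-CH1 controls. The lines did not overlap and the difference was 2.35 ± 0.37 (adjusted p = 0.00142). PTGR1 also read 7.29 on the MUG-Chor1 TNF array, above all its controls, but that difference of 1.54 did not pass (adjusted p = 0.198), and it passed without MUG-Chor1 control 3 at 1.91 (adjusted p = 0.0356). ABCC4, a transporter that can carry PGE2 out of cells, read 3.58, 3.56 and 3.77 in MUG-Chor1 controls, against 4.60, 5.36 and 5.07 in U-CH1 controls, a difference of -1.37 ± 0.22 (adjusted p = 0.00191).

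The receptor gene PTGER4 read 4.19 on the MUG-Chor1 TNF array, against 3.45, 3.81 and 3.57 on the MUG-Chor1 controls. It read 4.70 on the U-CH1 TNF array, against 3.30, 3.12 and 3.18 on the U-CH1 controls. Both TNF arrays lay above all controls of their line, by 0.39 in MUG-Chor1 and by 1.40 in U-CH1. PTGER4 rose by 1.5 ± 0.27 in U-CH1 (SE, 95% interval 0.91 to 2.09, limma adjusted p = 0.0243) and by 1.04 ± 0.23 across both lines (adjusted p = 0.0405). In MUG-Chor1 the difference was 0.58 ± 0.27 (adjusted p = 0.399), and the test of the difference between the lines did not pass (-0.92, adjusted p = 0.585). The size in U-CH1 stayed between 1.46 and 1.55 when a control was left out. Its adjusted p was then 0.0560, 0.0682 and 0.0550 without U-CH1 control 1, 2 or 3, and 0.0529 without MUG-Chor1 control 1. The call across both lines was lost without the same 4 arrays (adjusted p = 0.0809, 0.0736, 0.0702 and 0.0875). It was also lost without the U-CH1 TNF array, but that fit only repeats the MUG-Chor1 difference of 0.58.

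PTGER2 read 4.07 on the MUG-Chor1 TNF array, against 2.99, 3.14 and 2.95 on the MUG-Chor1 controls. It read 2.83 on the U-CH1 TNF array, against 2.68, 2.86 and 2.53 on the U-CH1 controls. The MUG-Chor1 TNF array was the highest of the 8 and stood 0.94 above its highest control, yet the difference of 1.05 ± 0.26 missed the threshold (adjusted p = 0.0687). The U-CH1 TNF array lay inside its controls (0.14, adjusted p = 0.932), and the TNF effects did not differ between the lines in the test (0.91, adjusted p = 0.588). Untreated, neither receptor gene passed the test between the lines, although the controls of the lines did not overlap in either (PTGER2 0.34 with adjusted p = 0.257, PTGER4 0.41 with adjusted p = 0.162).

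Of the other prostanoid receptors, 6 of 7 listed could be tested and 1 passed the test with TNF, in MUG-Chor1. In that comparison 1.47% of all genes were called higher. PTGER3, whose EP3 product lowers cAMP where EP2 and EP4 raise it, read 3.11 on the MUG-Chor1 TNF array, against 1.76, 1.59 and 1.59 on the MUG-Chor1 controls. It read 1.92 on the U-CH1 TNF array, against 1.56, 1.56 and 1.52 on the U-CH1 controls. Only the MUG-Chor1 TNF array lay above 2.57, so PTGER3 was admitted to the test by the 1 array where it was high. The spread in its test comes from controls under 2.57, with SDs of 0.10 in MUG-Chor1 and 0.02 in U-CH1. Low values are compressed, so this spread may be too small for the TNF array. The difference was 1.47 ± 0.25 in MUG-Chor1 (adjusted p = 0.0101, and 0.00939 in the fit of all genes without a filter) and 0.37 ± 0.25 in U-CH1 (adjusted p = 0.693), and the test between the lines did not pass (1.09, adjusted p = 0.364). The prostaglandin D2 receptor gene PTGDR lay below 2.57 on all arrays and was not tested.

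**Figure D3:**
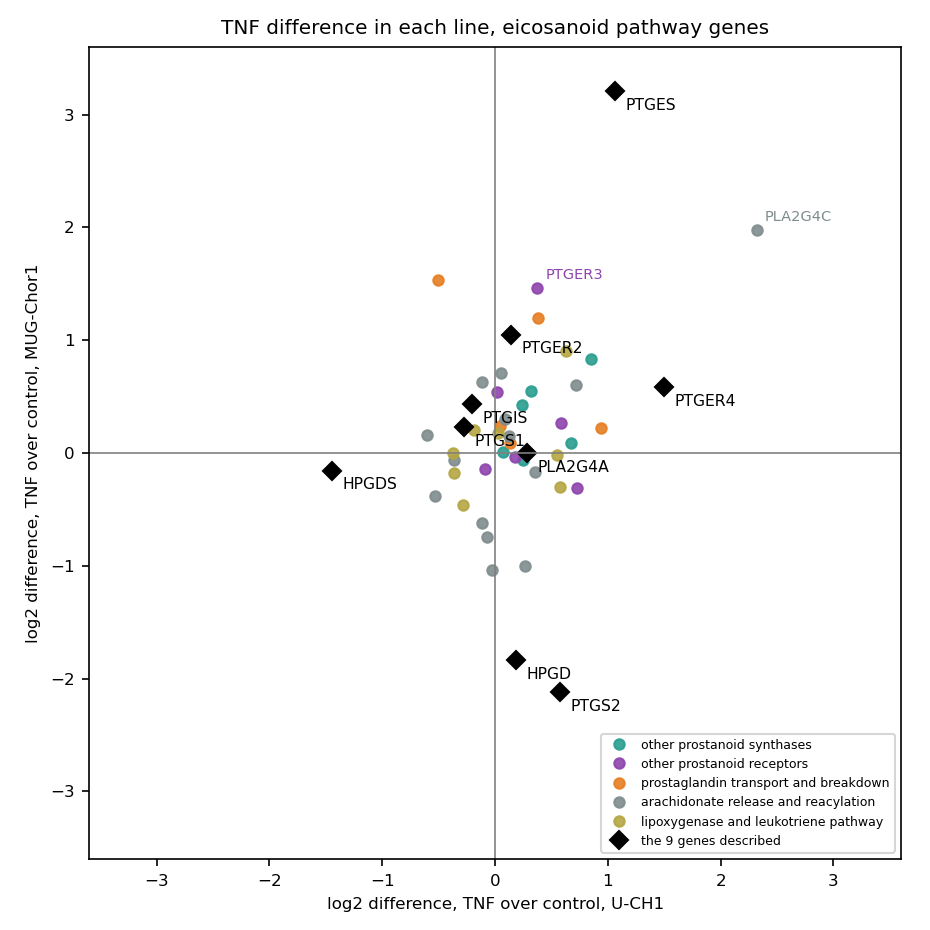
Log2 difference, TNF over control, in U-CH1 (x axis) and in MUG-Chor1 (y axis) for the 9 genes (black diamonds) and the tested genes of the other eicosanoid lists (coloured by list). Of the other genes, those with an adjusted p under 0.05 in either line are named: PLA2G4C lies at 2.32 and 1.98, and PTGER3 at 0.37 and 1.47.

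Lipoxygenases use the same arachidonic acid to make leukotrienes and related lipids. Of the 14 genes listed for that branch 8 could be tested, and 0 were called in any of the 5 comparisons (limma; across both lines 1 was higher and 0 lower at an unadjusted p under 0.05). ALOX5AP, the activating protein of 5-lipoxygenase, had the smallest p across both lines, with a difference of 0.76 (adjusted p = 0.0999). It read 4.00 on the MUG-Chor1 TNF array, against 2.90, 2.99 and 3.40 on the MUG-Chor1 controls, and 4.09 on the U-CH1 TNF array, against 3.56, 3.15 and 3.68 on the U-CH1 controls. EPHX2, an epoxide hydrolase of fatty acid epoxides, followed at -0.37 (adjusted p = 0.483).

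EP2 and EP4 act through cAMP, so 8 genes known to respond to cAMP were also examined, of which 7 could be tested. Across both lines 0 were higher with TNF and 1 was lower, the nuclear receptor gene NR4A2 (limma; 0 higher and 3 lower at an unadjusted p under 0.05). Of all genes, 1.55% were called higher and 0.93% lower across both lines. NR4A2 read 3.62 on the MUG-Chor1 TNF array, against 6.30, 6.69 and 4.61 on the MUG-Chor1 controls. It read 3.77 on the U-CH1 TNF array, against 5.30, 5.53 and 6.70 on the U-CH1 controls. Both TNF arrays lay below all controls, and NR4A2 fell by 2.16 ± 0.50 (SE, adjusted p = 0.0490). This call was lost without any 1 U-CH1 control, MUG-Chor1 control 1 or MUG-Chor1 control 2 (adjusted p = 0.0726 to 0.101), and without the filter (0.0729). With 1 TNF array left out the fit is that of the other line alone. NR4A2 then differed by -2.07 in U-CH1 and by -2.24 in MUG-Chor1, and neither passed the test. SIK1, a kinase gene induced by cAMP, was lower in untreated MUG-Chor1 than in untreated U-CH1 by a log2 difference of -1.24 ± 0.28 (adjusted p = 0.0123), a call lost without U-CH1 control 1 (adjusted p = 0.0579). The median TNF difference of the 7 genes across both lines was -0.43, against 0.05 over all genes tested.

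For the 3 genes that varied most over the 8 arrays, the tested genes with the most similar profiles were found by the root mean square difference between log2 values, each centred on its gene's mean over the 8 arrays. HPGDS was most like DSP (0.49), which encodes desmoplakin of desmosomes, GDA (0.49), which encodes guanine deaminase, and DOC2B (0.50), which encodes a calcium sensor of vesicle release. DSP read 3.69 on the MUG-Chor1 TNF array, against 3.15, 3.06 and 3.10 on the MUG-Chor1 controls, and 6.90 on the U-CH1 TNF array, against 7.82, 7.98 and 8.32 on the U-CH1 controls. PTGES was most like SESN2 (0.37), a stress-induced sestrin gene, CXCL5 (0.38), a neutrophil-attracting chemokine gene, and GNPTAB (0.39), which encodes a subunit of the enzyme that tags lysosomal proteins with mannose 6-phosphate. CXCL5 read 5.46 on the MUG-Chor1 TNF array, against 3.03, 2.83 and 2.58 on the MUG-Chor1 controls, and 3.91 on the U-CH1 TNF array, against 2.78, 3.11 and 2.80 on the U-CH1 controls. HPGD was most like ACKR5 (0.25), the transcription factor gene SIM2 (0.27) and the laminin chain gene LAMB2 (0.27). Like HPGD, SIM2 was lowest on the MUG-Chor1 TNF array, at 4.32 against 5.88, 5.91 and 4.86 on the MUG-Chor1 controls, with control 3 the lowest control. A small difference over 8 arrays of 2 lines is a description only.

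**Figure D4:**
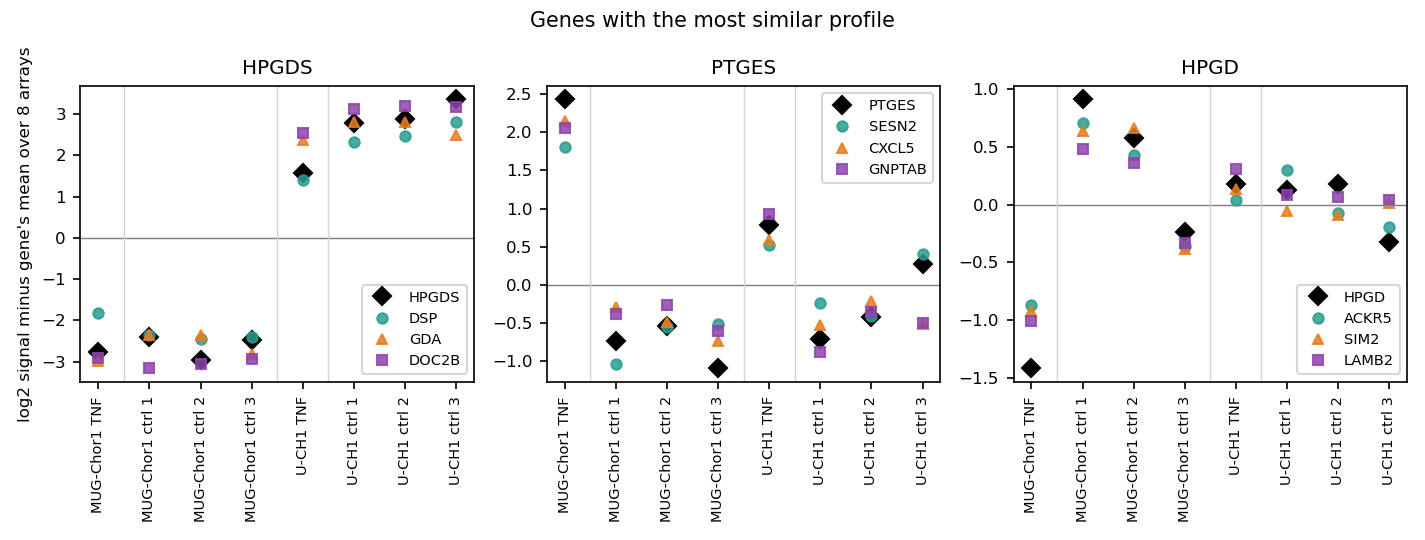
Log2 signal minus the gene's mean over the 8 arrays (y axis) on each array (x axis) for HPGDS, PTGES and HPGD (black diamonds) and the 3 tested genes closest to each (coloured symbols). HPGDS and its nearest genes split by line, PTGES and its nearest genes peak on the MUG-Chor1 TNF array, and HPGD and its nearest genes are lowest there.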

How the data were processed

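The deposited table holds log2 values, 1 for each of 53617 probe sets on each of 8 arrays, made with RMA and handled in Transcriptome Analysis Console, per the submitters' processing notes, which give no versions. No log base is stated in the sources used here, and log2 was taken from the use of RMA and from values that span 0.0648 to 12.7. Since RMA normally brings arrays to 1 distribution, a shift of the whole transcriptome would be hidden, and low values are compressed. Per the labels' protocols, Trizol RNA was made into biotin-labelled single-stranded cDNA. The array's genome build, scan dates and detection calls were not used here, so TNF and any array batch shared with it cannot be told apart. For arrays, their number limits the precision.

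Probe sets with 1 symbol (23871) were kept, those with several (1842) or not listed (27904) were not, and 90 symbols were updated through Entrez identifiers matched to RefSeq for 22569 probe sets. Where a gene had several probe sets (632 genes), the brightest on average was used. Models were fitted with lmFit and eBayes of limma 3.58.1, under R 4.3.3. Tests were two-sided and p-values were adjusted by Benjamini-Hochberg over 16986 genes. The TNF comparison over both lines used line and TNF as additive terms (5 residual degrees of freedom), all others 4 group means (4 residual degrees of freedom). In the 4 group means the single TNF array of a line adds nothing to the estimate of spread, whereas in the additive model the disagreement between the TNF effects of the lines enters it. Each fold is 2 to the power of a log2 difference. Scripts were tested on simulated data. Replicate numbers were checked for pairing between lines: deviations of same-numbered controls correlated at 0.043, -0.057 and 0.163, so they were not taken to pair arrays.

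The members and gene lists were chosen with earlier results of these data known. Genes named are the 9 members, genes of the other lists called in at least 1 comparison (otherwise the 2 with the smallest p across both lines), 5 TNF response checks, and the 3 genes most like each of the 3 members that varied most. Alternatives changed the filter, probe set choice, normalization, variance model, threshold, model, arrays in the fit and the replicate block, and left out each array in turn. PTGIS had no promoter entry.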

Additional observations from a re-analysis of the deposited data

Results flagged for a closer look

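PTGS2 was singled out because the TNF effects of the lines differed in the test itself: the difference, MUG-Chor1 minus U-CH1, was -2.70 on the log2 scale (limma adjusted p = 0.0384), with the MUG-Chor1 TNF array below all its controls and the U-CH1 TNF array above all of its own.

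TNF arrays lay outside their controls for 59.2% of all genes in MUG-Chor1 and 54.3% in U-CH1. PTGS1 was singled out because its TNF arrays lay on opposite sides of their controls, 0.13 above in MUG-Chor1 and 0.03 below in U-CH1. The difference was 0.51 and did not pass the test (adjusted p = 0.943).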

How the results depend on the processing

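The rise of PTGES (adjusted p = 0.00111 to 0.00882) and the fall of PTGS2 (0.00542 to 0.0351) with TNF in MUG-Chor1 passed the threshold under every alternative run, as did the line differences of HPGDS (2.47e-07 to 1.74e-05), PLA2G4A (0.00172 to 0.0161) and PTGS2 (0.00786 to 0.0417), and the rise of PLA2G4C. Some of the alternatives could not end these calls. Leaving out a TNF array that a comparison does not use returns the same fit, and all these differences were over 1 on the log2 scale. Each of the 9 genes had 1 probe set, so averaging probe sets left its values unchanged. PTGER3 was not tested where 3 arrays had to lie above 2.57. Its difference in MUG-Chor1 stayed between 1.44 and 1.52 when a control was left out. All its alternatives share the 1 TNF array that admitted it and controls under 2.57, so their agreement is no separate support. Leaving out 1 array at a time, the number of the 9 genes called was 0 to 3 across both lines, 0 to 1 in U-CH1, 2 to 3 in MUG-Chor1 and 0 to 2 for the difference of the TNF effects, which was 0 without the filter on low values. With the replicate block over the 6 controls 3 of the 9 were called between the untreated lines, as without it. Among 854 recomputed values of single genes 796 kept direction and side of the threshold, 47 lost the call, 3 gained it and 8 changed sign, all 8 when an array was left out and none of them called. These values cover the 9 genes in every comparison, but other listed genes only where the main fit called them. Those others could lose a call and not gain one, so lost and gained calls cannot be weighed against each other. Alternatives that return the same fit are counted among the 796. Leaving out single arrays, the difference across both lines ranged from -0.00205 to 0.28 for PLA2G4A, -0.27 to 0.23 for PTGS1, -2.12 to 0.58 for PTGS2, -0.21 to 0.43 for PTGIS and -1.83 to 0.18 for HPGD, and that of PLA2G4A in MUG-Chor1 from -0.0249 to 0.0280. Across both lines, the ends of these ranges are the single-line differences, which the fit returns when the other line's TNF array is left out. Over all genes the count called across both lines was 422, against 739 with 4 group means and 199 to 489 without single arrays. It was 216 in U-CH1 (104 to 329), 489 in MUG-Chor1 (284 to 664, and 296 with that line's arrays alone), 90 for the difference (38 to 152) and 3209 between the untreated lines (1816 with a log2 change of at least 1, 2123 without MUG-Chor1 control 1). Fewer arrays leave fewer residual degrees of freedom. Signal over background was not used here, and 1 TNF array per line limits every TNF comparison.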
